A study of Canis lupus familiaris with 33 samples.

Results

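Oligodendroglioma was compared with healthy brain in French Bulldogs, using formalin-fixed paraffin-embedded (FFPE) tissue only. The 11 libraries are those whose labels give FFPE as the tissue status and French Bulldog as the breed, out of 33 libraries in the series. They comprise 6 tumours and 5 control brains, each from a different dog. The series as a whole asks how well archived FFPE tumour tissue serves the search for tumour-associated antigens, and holds FFPE and fresh-frozen libraries of several breeds. All brains were sampled at necropsy, some hours after death, and the labels give no time for any single dog. Tumours of dogs 51234 and 60679 were labelled grade II, and those of dogs 44331, 60177, 60636 and 60749 grade III. Stated ages were 7.9 years for tumour dog 44331, 8.3 for 51234, 5.3 for 60177, 4.7 for 60636 and 8.2 for 60679, with none used for 60749. The control dogs 47198, 60460 and 60462 were 4, 6.9 and 8 years old, and no age was used for 43323 and 45726. Tumour dogs 60636, 60679 and 60749 and control dogs 60460 and 60462 also gave a fresh-frozen library. A Boxer set of 4 FFPE tumours and 4 FFPE controls served for the test of breed. All 4 Boxer tumours were labelled grade III. Stated ages were 10.3 years for Boxer tumour dog 43917, 7 for 50416 and 12 for 60792, and 2 for Boxer control dog 50315. No age was used for the other Boxer FFPE libraries. Breed cannot be told apart from grade or age in that test.

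Oligodendroglioma is a glial tumour whose cells resemble the oligodendrocyte lineage, the cells that make myelin in the brain. In dogs it is seen above all in short-skulled breeds such as the Boxer and the French Bulldog, in which it arises spontaneously. Healthy brain tissue holds neurons, mature oligodendrocytes, astrocytes, microglia and vessels, and a tumour sample replaces much of this mixture with tumour cells. The libraries are of bulk tissue, so fewer cells of a type and less RNA per cell cannot be told apart in any result given here. The labels do not say which brain region a sample came from, how much of a tumour block was tumour, or whether tumours had been treated. The deposited table pairs its Ensembl identifiers with no gene names, so the labelled tissue could not be checked against markers of oligodendrocytes, neurons or other cells. Genes are therefore described by chromosome, position and gene structure, and only 4 identifiers are given.

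Tumour libraries held a mean of 5.60 ± 2.13 M counts (M, mega-counts; SD, n = 6) and control libraries 4.17 ± 2.93 M (SD, n = 5). The range was 3.84 to 9.71 M in tumours and 1.6 to 9.11 M in controls. Mitochondrial transcripts took 23.3 ± 7.94% of counts in tumours and 23.7 ± 10.4% in controls. None of 6 library measures passed a two-sided exact permutation test of the group difference over 462 splits, with adjusted p from 0.662 to 0.946. Those measures were the total, the number of genes with a count, and the shares of counts in mitochondrial, short single-exon and unplaced features and in the 100 highest genes. Within the tumour group, comparison of the counts of 15 pairs of libraries gave chi-square statistics per degree of freedom between 26.01 and 267.7, and within the control group 10 pairs gave 35.28 to 125.6, where sampling noise alone gives about 1. No pair agreed within sampling noise, and each library is labelled as a different dog. The spread covers dog, brain site, block age and library together.

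Both groups held a library that stood apart. The control of dog 60462 had the lowest total of the 11, with 1.6 M counts, yet the most genes with a count, 26124, against 18041 to 19902 in the other 4 controls. It also had the highest mitochondrial share, 40.3%, and the highest share in short single-exon features, 6.93%. Its fresh-frozen library showed the same broad detection, with 26373 genes in 25.5 M counts. On the second principal component of log2 CPM (a gene's count scaled by the size of its library), which held 17.4% of the variance, it lay at 122, while the other 10 libraries lay between -48.5 and 25.8. The tumour of dog 44331 stood apart in another way: on the first component (41% of the variance) it lay at -36.6, among the controls at -80.9 to -21.3, whereas the other tumours lay between 11.8 and 121. Its label gives grade III, and its total of 5.70 M counts was the second highest among tumours. For some of the values that moved with their removal, though not all, the value without them is given.

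To place each library on genes chosen without it, genes were called from the other 10 libraries. The left-out library was scored between the control mean (0) and the tumour mean (1) of the others on those genes. Log2 CPM was scaled and filtered over all 11 libraries. The gene sets ran from 122 genes for control 47198 to 1951 for tumour 44331, so the scores are not strictly on a common scale. Tumour 60749 scored highest with a median of 1.45, followed by 51234 with 1.18, 60636 with 1.02, 60177 with 0.974 and 60679 with 0.659. Tumour 44331 scored 0.24, below control 60462 with 0.415 and just above the other 4 controls, which scored 0.13 to 0.22. The grade II tumours lay apart from each other: 51234 scored second highest, and 60679 scored lowest of the tumours after 44331, which is grade III. With 2 tumours of grade II, no order by grade can be read from these scores. In tumour 60679 the genes called lower moved less far from control, with a median of 0.456, than the genes called higher, with 0.81. Tumours 51234 and 60749 showed the opposite, with 1.41 and 1.69 for lower genes against 1.05 and 1.40 for higher genes.

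**Figure D1:**
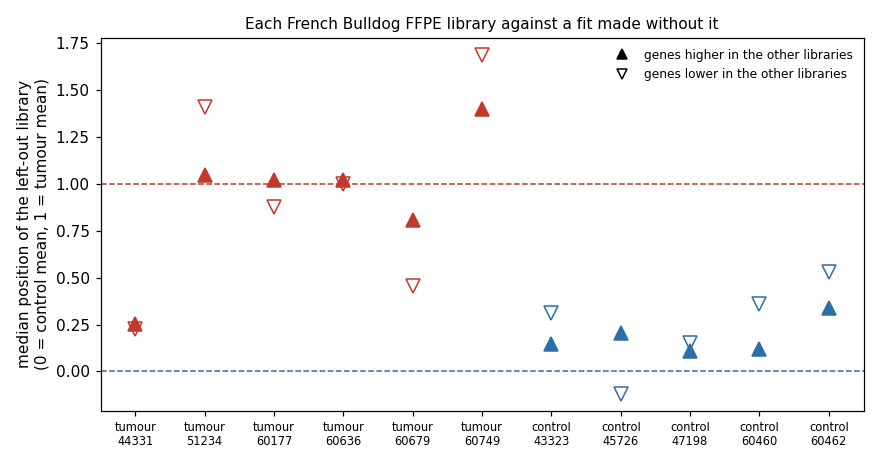
Each French Bulldog FFPE library on the x axis and, on the y axis, its median position between the control mean (0) and the tumour mean (1) over genes called in a fit without it; filled triangles show genes higher in tumours and open triangles genes lower in tumours, with tumours in red and controls in blue. Tumour 44331 lies at 0.254 and 0.228, within the range of the controls, and tumour 60749 lies highest at 1.40 and 1.69.

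Tumours differed from controls at 722 of 13683 genes tested (5.28%), by edgeR's quasi-likelihood test with a Benjamini-Hochberg adjusted p under 0.05. Of these, 456 genes were higher in tumours (3.33%) and 266 were lower (1.94%), and 3564 genes had an unadjusted p under 0.05. The changes were large: at least a 2-fold change was seen in 451 higher and 263 lower genes, and at least 8-fold in 49 and 45. The median log2 fold change was 1.86 among the higher genes and -2.20 among the lower ones. Counts of the same 13683 genes were also simulated, with 200 genes changed. Those 200 were drawn from genes that were not low in counts, the spread followed the trend with abundance, and no library stood apart. The test then called 94% of genes changed 8-fold, 73% of those changed 4-fold and 0.5% of those changed 2-fold. Changes near 2-fold were thus mostly not detected even under these settings. Recovery in the real libraries, with genes of lower counts and libraries that stood apart, was not measured.

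Overlap of the groups gives the same comparison gene by gene. Every tumour lay above every control at 324 genes (2.37% of those tested) and below every control at 309 genes (2.26%). Among the called genes, 218 of the 456 higher and 164 of the 266 lower ones had groups that did not overlap. Without tumour 44331, 961 genes were higher and 990 lower, and 720 of the 722 genes of the full comparison were among them. Without control 60462, 642 were higher and 383 lower, and without both libraries 1452 and 1289. The library left out was in each case chosen after its position was known, so a larger count without it is not independent of that choice. The removal of control 47198, which did not stand apart, lowered the count to 77 higher and 45 lower.

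The balance between higher and lower genes depended on the tool. It was 63.2% higher with edgeR, 44.3% with DESeq2, which called 1063 higher and 1338 lower, and 46.3% with limma voom and library quality weights, which called 1602 and 1859. All 722 genes were also called by DESeq2 and 704 by voom. These fits share the same libraries.

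**Figure D2:**
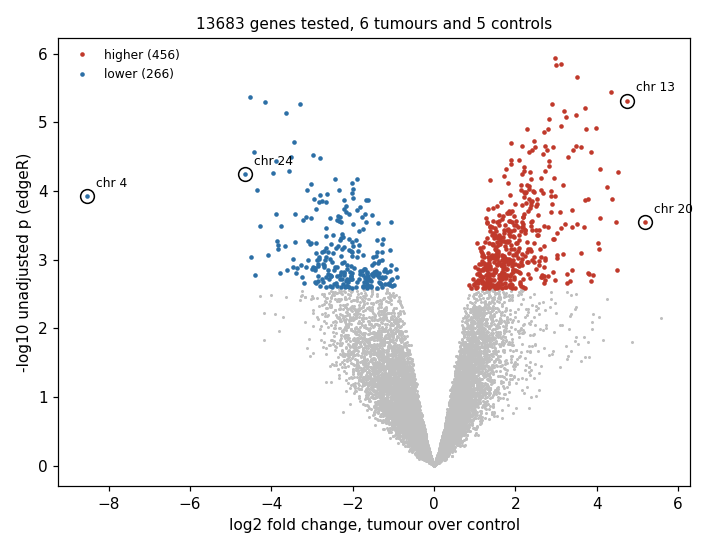
Each of 13683 tested genes in French Bulldog FFPE tissue, with its log2 fold change (tumour over control, x axis) against -log10 of the unadjusted edgeR p (y axis). The 456 genes called higher are red and the 266 called lower are blue; the 4 circled genes are those given by identifier, labelled with their chromosome, and the one on chromosome 4 lies farthest left at -8.53.

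The 4 identifiers given are the 2 highest and 2 lowest by fold change among 453 higher and 257 lower genes that met a rule on abundance and on separation of the groups. The highest was ENSCAFG00000014040, a gene of 9 exons on the plus strand of chromosome 20 (CanFam3.1, chr20:43234387-43289765). Its log2 CPM was 1.28 in tumour 44331, 4.03 in 51234, 5.26 in 60177, 6.68 in 60636, 6 in 60679 and 7.48 in 60749. In controls it was 1.95 in 43323, -1.35 in 45726, 0.164 in 47198, 0.403 in 60460 and 2.65 in 60462. In 5 of the 6 tumours it was above every control, and the sixth, tumour 44331, lay within the control range. The log2 fold change was 5.17 ± 1.08 (SE; edgeR adjusted p = 0.022), and without control 47198 the adjusted p was 0.0672. Control counts were 0 to 10 per library, so its level in these FFPE controls was close to what such shallow libraries can detect. Among Boxer FFPE controls it held 67 counts in dog 61478, a log2 CPM of 4, and in the deeper frozen controls of all breeds 44 to 169 counts, so the gene was not silent in control brain.

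ENSCAFG00000002057, a gene of 25 exons on the plus strand of chromosome 13 (chr13:46730703-46773278), was abundant in tumours. Its log2 CPM was 6.60 in tumour 44331, 10.5 in 51234, 10.3 in 60177, 10.4 in 60636, 9.97 in 60679 and 11.2 in 60749. The controls lay at 5.56 in 43323, 5.11 in 45726, 5.05 in 47198, 5.25 in 60460 and 6.39 in 60462. All 6 tumours were above every control, 5 of them by more than 3 log2 units and tumour 44331 by a narrow margin over control 60462. The log2 fold change was 4.74 ± 0.659 (SE; edgeR adjusted p = 0.00744). In raw counts the gene took 4383 to 28861 per library in those 5 tumours, 521 in tumour 44331 and 91 to 323 in controls.

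The lowest by fitted fold change was ENSCAFG00000017871, a gene of 23 exons on the plus strand of chromosome 4 (chr4:57742651-57823740). Controls differed widely, at 4.03 in 43323, 10.3 in 45726, 1.92 in 47198, 3.75 in 60460 and 9.91 in 60462 on the log2 CPM scale. The tumours lay at 0.907 in 44331, -1.35 in 51234, -1.35 in 60177, 1.24 in 60636, 1.88 in 60679 and -0.474 in 60749, the value of -1.35 standing for a count of 0. All 6 tumours were below every control, although tumour 60679 and control 47198 differed by a small margin. The fitted log2 fold change was -8.53 ± 1.61 (SE, edgeR adjusted p = 0.0173), larger than the difference of mean log2 CPM of -5.83. Controls 45726 and 60462 held 3271 and 1306 counts of this gene, and the reason for the gap was not tested. With limma voom and quality weights the estimate was -4.25 with an adjusted p of 0.15. The fresh-frozen library of control dog 60462 held 58 counts of this gene, a log2 CPM of 1.32, so the high level of its FFPE library was not present in the frozen sample of the same dog.

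ENSCAFG00000041869, a gene of 3 exons on the plus strand of chromosome 24 (chr24:20219598-20222187), separated the groups more evenly. Controls lay at 3.84 in 43323, 5.34 in 45726, 3.03 in 47198, 2.63 in 60460 and 3.77 in 60462, and tumours at 0.589 in 44331, -0.673 in 51234, 1.05 in 60177, 0.277 in 60636, -0.743 in 60679 and -1.35 in 60749. All 6 tumours, 44331 included, were below every control. The log2 fold change was -4.64 ± 0.816 (SE; edgeR adjusted p = 0.0133), on 0 to 6 counts per tumour library and 18 to 107 per control library.

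**Figure D3:**
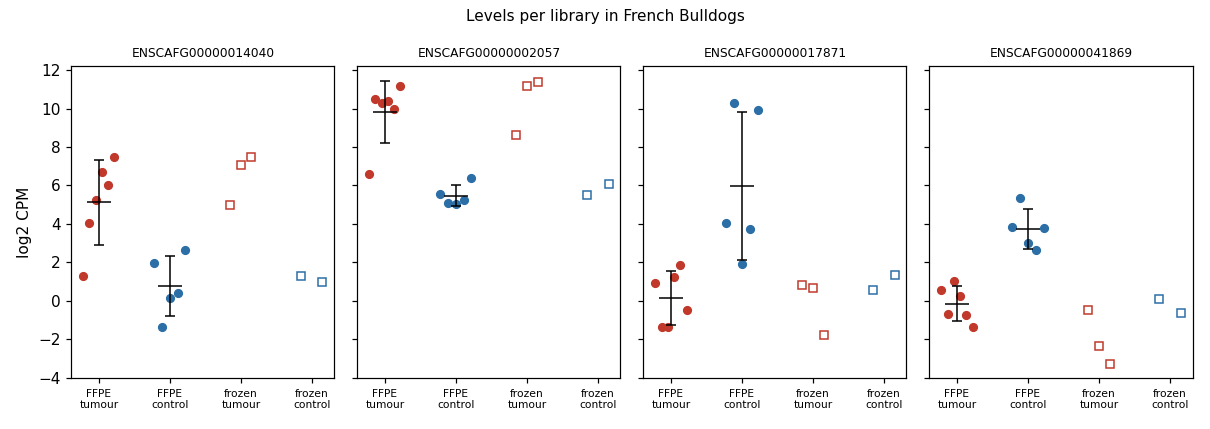
Log2 CPM (y axis) of the 4 genes in every French Bulldog library; filled circles are FFPE libraries with mean and SD bars (6 tumours, 5 controls), and open squares are the fresh-frozen libraries, scaled separately, of 3 of the tumour dogs and 2 of the control dogs. The gene on chromosome 13 (second panel) lies at 9.97 to 11.2 in 5 FFPE tumours and at 5.05 to 6.39 in controls, and the genes in the last panels are lower in frozen than in FFPE controls.

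By gene structure, most nuclear classes were called at shares near those over all genes, 3.33% higher and 1.94% lower. Genes spanning 500 kb or more had larger shares in both directions, each on 8 genes. Of 12779 multi-exon genes, 430 were higher (3.36%) and 238 lower (1.86%). Single-exon genes over 300 bp gave 12 higher (2.76%) and 7 lower (1.61%) of 434, with a median log2 fold change of 0.16. Single-exon features up to 300 bp, which include small noncoding RNAs, gave 14 higher (3.23%) and 7 lower (1.61%) of 434, with a median of -0.645 against a value near 0 (-0.000352) for all genes. That median rested in large part on control 60462: it was -0.187 without that library and -0.197 without tumour 44331 as well. With single libraries left out the lower calls ran from 0 to 34, the most without control 60460. Genes spanning 500 kb or more, a class rich in long neuronal genes in mammalian brain, gave 8 higher (4.32%) and 8 lower (4.32%) of 185, with a median of -0.166. With single libraries left out, their lower calls ran from 2 without tumour 60636 to 25 without tumour 44331. Lower calls over all genes were 55 and 990 in those fits. On unplaced scaffolds 1 of 74 was higher and 1 lower.

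Single-exon genes with the lengths typical of core histone coding sequences were also counted, since replication-dependent histone genes are transcribed in dividing cells. Of 15 tested, 1 was higher (6.67%, against 3.33% of all genes) and 0 lower by edgeR, a count near background, and all 15 fold changes were positive, from 0.209 to 2.98 with a median of 1.37 on the log2 scale. On chromosome 35, which carries the large histone cluster of the dog, 9 were tested with a median of 1.69. The shift of these 9 genes in each library, the median distance from the midpoint of the group means, was 2.41 in tumour 60749, 1.54 in 51234, 1.07 in 60636, 0.262 in 60177, 0.133 in 60679 and -0.839 in 44331. Controls lay between -1.24 and 0.00841. Tumour 44331 was again within the control range. The genes were matched by length and not by name, so other genes may be among them.

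The mitochondrial genome split by feature size. It encodes 2 ribosomal RNAs, the protein genes of the respiratory chain and the transfer RNAs that translate them, all cut from long transcripts. Of 21 tested features up to 80 bp, the size of transfer RNAs, 14 were lower in tumours (66.7%, against 1.94% of all genes) and 0 higher, and all 21 fold changes were negative, with a median of -2.67. At 6 of the 21 every tumour lay below every control (background 2.26%). The calls, unlike the median, depended on single libraries: 1 feature was called without control 47198, 2 without control 45726, tumour 60177 or tumour 60636, 3 without tumour 51234, 6 without control 43323 or 60462 and 8 without tumour 60679, against 19 without tumour 44331. Lower calls over all genes, 266 in the full comparison, changed with these removals too. They were 45 of 14037 without control 47198, 55 of 13436 without tumour 60636 and 67 of 13590 without tumour 60177. Without tumour 44331 they were 990 of 13446, and without control 60462 they were 383 of 13939. The median of the small features ran from -2.99 to -2.12 over these removals. Features of at least 200 bp, which hold the ribosomal RNAs and protein genes, had 0 of 15 called in either direction and a median of -0.208. The edgeR test gave adjusted p values of 0.0215 to 0.0489 for the 14 lower features.

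The share of all counts in the small mitochondrial features was 0.0703% in tumour 44331, 0.0253% in 51234, 0.0458% in 60177, 0.0518% in 60636, 0.0663% in 60679 and 0.00878% in 60749. In controls it was 0.123% in 43323, 0.248% in 45726, 0.311% in 47198, 0.0754% in 60460 and 0.739% in 60462. By this share the groups did not overlap, although tumour 44331 and control 60460 were close. By the median shift of these features on the log2 CPM scale they did overlap, with tumour 44331 at -0.105 and control 60460 at -0.152. The mean share of the 6 tumours was 0.0447 ± 0.0238% (SD) and that of the 5 controls 0.299 ± 0.263% (SD). The pair of long features at the start of the genome, where the ribosomal RNAs lie, took 8.26 ± 5.82% of counts in tumours and 8.37 ± 4.01% in controls, and the other long features took 15 ± 3.64% and 15.1 ± 8.11%. Without control 60462 the median of the features up to 80 bp was -2.12, and that of the long features changed sign to 0.178.

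The same small features took 0.0344 to 0.111% of counts in the 4 Boxer FFPE tumours and 0.123 to 0.333% in the 4 Boxer FFPE controls, which did not overlap either. The FFPE libraries of other breeds went the other way. Tumour 60127 (Pomerian as labelled, grade III) had 0.0958% and control 60126 (Bolonka Swetna) 0.068%, so the separation did not hold over all FFPE tissue. In fresh-frozen French Bulldog tissue the shares were 0.0331% in tumour 60636, 0.0149% in 60679 and 0.0064% in 60749, against 0.0325% in control 60460 and 0.0493% in 60462. Frozen tumour 60636 lay above a frozen control, so the groups overlapped there. They also overlapped in frozen tissue of other breeds, where controls had 0.0327% to 0.0532%. Tumour 60127 had 0.0442%, while 60461 with 0.0103% and 60631 with 0.00545% lay below those controls. Near-identical nuclear copies and reads from unprocessed long transcripts can add to or take from these counts. The labels give no fragment size or RNA quality for the blocks, and their part in the result was not tested.

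**Figure D4:**
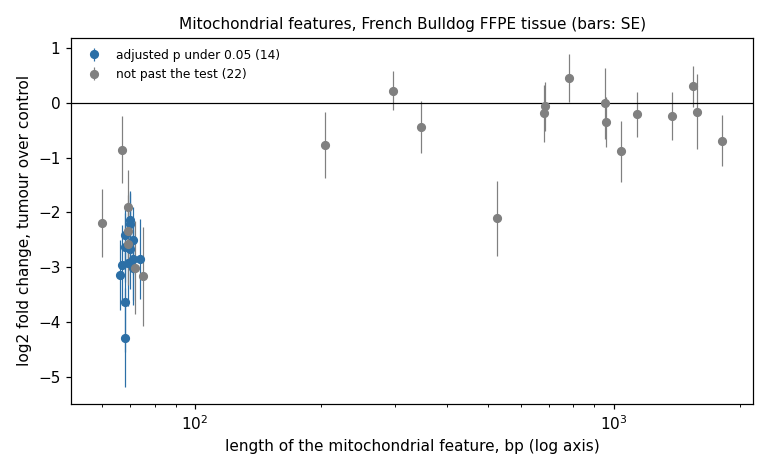
Log2 fold change of tumour over control (y axis, bars are SE) against feature length in bp (log x axis) for 36 mitochondrial features in French Bulldog FFPE tissue. The 21 features up to 80 bp all lie below 0 and 14 of them pass the edgeR test, while none of the 15 longer features does.

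Chromosome shifts described regional change. The shift of a chromosome in a library is how far its genes lie, by their median, from halfway between the tumour and control means, after the median of all genes in the same library is subtracted. None of 39 chromosomes (0%) passed the two-sided exact permutation test of the groups after adjustment, and 6 had an unadjusted p under 0.05. The smallest p that the 462 splits allow is 0.00216, which adjusts to 0.0844 when 1 chromosome reaches it, so this test could not call a single chromosome. Chromosome 27 reached it, with every tumour below every control (1 of 39 chromosomes, 2.56%), but its difference was only -0.0939 log2 units. Tumours lay between -0.100 and 0.00167 on it, and controls between 0.00904 and 0.11.

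Chromosomes 13 and 35 had the largest differences. Chromosome 13, on which the growth factor receptor genes PDGFRA and KIT and the growth regulator MYC lie in the dog, had a difference of 0.501 log2 units between the groups (exact permutation p = 0.0346, adjusted p = 0.281). Its shift was 0.865 in tumour 60749, 0.574 in 60636, 0.399 in 51234, 0.184 in 60177, -0.00931 in 60679 and -0.306 in 44331, against -0.294 to -0.0843 in controls. Thus 5 tumours lay above every control and tumour 44331 lay below every control. Of 266 tested genes on the chromosome, 22 were higher (8.27%, against 3.33% of all genes) and 3 lower (1.13%, against 1.94%). Without both libraries that stood apart, the difference was 0.677 (adjusted exact permutation p = 0.0884), and with no filter on low counts it was 0.0416.

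Chromosome 35 differed by 0.523 log2 units (exact permutation p = 0.0368, adjusted p = 0.281). Tumour 51234 lay highest at 0.892, then 60749 at 0.662, 60679 at 0.265, 60636 at 0.177, 60177 at -0.144 and 44331 at -0.29, and controls ranged from -0.431 to -0.0442. On it, 10 of 137 genes were higher (7.30%) and 1 lower (0.73%). The difference was 0.707 without both libraries that stood apart and 0.12 with no filter on low counts. Chromosome 7 gave 34 higher (7.04%) and 9 lower (1.86%) genes of 483 with a difference of 0.17 (adjusted exact permutation p = 0.369). Chromosome 20 held the most genes called higher, 40 of 677 (5.91%) with 4 lower (0.591%), with a difference of 0.284 (exact permutation p = 0.203, adjusted p = 0.441). Its shift was 0.797 in tumour 60749, 0.336 in 60177 and 0.186 in 60636 but -0.351 in 51234, and control 60462 lay at -0.553 while the other controls lay between -0.14 and 0.0873. Without control 60462 the difference was 0.174, and without tumour 60749 it was 0.166.

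On the lower side, chromosome 37 had a difference of -0.174 log2 units (exact permutation p = 0.00866, adjusted p = 0.169). Of its 168 genes, 6 were lower (3.57%, against 1.94% of all genes) and 4 higher (2.38%, against 3.33%). Tumours lay at -0.23 in 60177, -0.224 in 60749, -0.089 in 51234, -0.0554 in 60636, -0.0225 in 44331 and 0.0353 in 60679, and controls between 0.000966 and 0.105. Thus 5 tumours, 44331 among them, lay below every control. Chromosomes 31 and 36 differed by -0.183 and -0.229 with adjusted exact permutation p of 0.281 and 0.396. On chromosome 31, 2 of 125 genes were higher (1.6%) and 1 lower (0.8%). On chromosome 36, 1 of 118 genes was higher (0.847%) and 3 lower (2.54%).

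The tumours also varied among themselves. Tumour 60749 had its widest shifts on chromosomes 13, 20 and 35, given above, and lay at -0.616 on chromosome 14, -0.478 on chromosome 36, 0.421 on chromosome 38 and 0.39 on chromosome 7. Tumour 60177 lay on the same side on chromosomes 14, 36 and 38, at -0.352, -0.412 and 0.603, and at -0.584 on chromosome 22. Tumour 51234 lay on the other side on chromosome 38, at -0.371, and had 0.491 on chromosome 17 and -0.642 on chromosome 19. Some wide shifts thus recurred between tumours and others did not. Tumour 60749 had 8 chromosomes more than 0.3 log2 units from 0, 51234 and 60177 had 7 each, and 60636, 60679 and 44331 had 1 each. Among controls the number was 10 in 60462 and 0 to 2 in the others, so wide shifts were not limited to tumours.

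**Figure D5:**
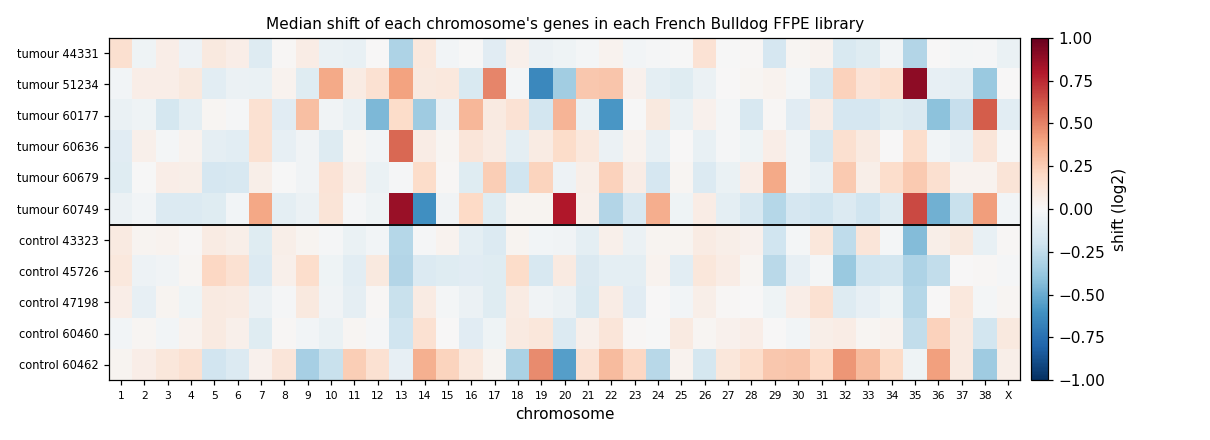
Median log2 shift (colour) of the tested genes of each chromosome (x axis) in each French Bulldog FFPE library (rows; 6 tumours above the line, 5 controls below it). Chromosome 13 reaches 0.865 in tumour 60749 and 0.574 in 60636 and lies at -0.306 in tumour 44331, and control 60462 lies at -0.553 on chromosome 20.

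Among 662 consecutive windows of 20 tested genes, 29 had a median log2 fold change of at least 0.5 and 23 of at most -0.5. The highest was chr35:24145768-25446111, with a median of 1.12 over its 20 genes and 1 gene called higher. The window shift there was 2.02 in tumour 60749, 1.76 in 51234, 0.955 in 60679, 0.756 in 60636, 0.417 in 60177 and -0.386 in 44331, with controls from -0.348 to 0.683. On chromosome 13, the windows chr13:37846149-38224005, chr13:49090863-62012404, chr13:22543543-29336623 and chr13:18587129-22494520 had medians of 0.923, 0.89, 0.848 and 0.80, and a neighbouring window, chr13:38312173-43383094, had 0.0836. High windows thus lay along much of the chromosome, with a gap between them. Every tumour lay above every control in 2 windows (0.302%) and below every control in 6 (0.906%). The lowest of those 6 was chr5:9521740-12650784, with a median of -0.99 and 1 gene called lower, and it was also the lowest of all 662. The next lowest, chr37:25796107-28938866, had a median of -0.967 with 2 genes called lower.

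The fresh-frozen libraries of the same dogs gave shifts that can be set beside those of FFPE, each measured from control dogs 60460 and 60462 in the same kind of tissue. For tumour 60749 chromosome 13 lay at 1.04 in frozen and 0.90 in FFPE tissue, and chromosome 35 at 0.866 and 0.823. Chromosome 14 lay at -0.883 and -0.791, and chromosome 36 at -0.568 and -0.741. On chromosome 20 it lay at 0.654 in frozen and 1.17 in FFPE tissue, and on chromosome 32 at 0.102 and -0.45. The values from this baseline were thus close on some chromosomes and differed in size or sign on others. The FFPE baseline holds control 60462, which stood apart. Its FFPE shift was -0.553 on chromosome 20 and 0.439 on chromosome 32, against -0.14 and 0.0721 in control 60460. Measured from halfway between the tumour and control means, FFPE tumour 60749 lay at 0.797 and -0.14 on these chromosomes. How far the baseline set the gaps between frozen and FFPE values was not tested. For tumour 60636 chromosome 13 lay at 0.0298 in frozen and 0.764 in FFPE tissue, so the samples of this dog differed. For tumour 60679 chromosome 13 lay at 0.0401 and 0.114, and chromosome 20 at 0.567 and 0.299. Over the 456 genes higher in FFPE the median difference of log2 CPM between frozen tumours and frozen controls was 1.59, and over the 266 lower genes it was -1.66, against -0.0232 over all genes. The frozen and FFPE samples come from the same dogs, so these values are not independent of the FFPE comparison.

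The 4 genes were also read in the frozen libraries. Frozen libraries were scaled among themselves and are deeper, so that a count of 0 stands at -3.28 log2 CPM there and at -1.35 in FFPE. ENSCAFG00000014040 lay at 5.01 in tumour 60636, 7.06 in 60679 and 7.46 in 60749, against 1.30 in control 60460 and 0.97 in 60462. ENSCAFG00000002057 lay at 8.64, 11.2 and 11.4 in the same tumours and at 5.48 and 6.06 in the controls. Both genes separated frozen tumours from frozen controls. ENSCAFG00000017871 did not, at 0.847, 0.668 and -1.77 in tumours and 0.58 and 1.32 in controls, since tumours 60636 and 60679 lay above control 60460. ENSCAFG00000041869 lay at -0.459, -2.37 and -3.28 in tumours and at 0.093 and -0.646 in controls, with tumour 60636 between the controls. Both genes had much lower levels in frozen controls than in FFPE controls of the same dogs.

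The test of breed asked whether the tumour difference in French Bulldogs differed from that in Boxers, the other breed with tumours and controls in FFPE. By edgeR's interaction test, 0 of 14760 genes (0%) passed, and 289 genes (1.96%) had an unadjusted p under 0.05. DESeq2 gave 0 with 659 unadjusted, and limma voom 0 with 493. Boxer control 50315 held only 0.406 M counts and 13077 genes with a count, both below every French Bulldog FFPE library. Without it edgeR's interaction test still called 0, with 344 unadjusted, and without Boxer control 61478 also 0, with 294. On counts simulated in the same way, this test recovered 14% of genes whose difference was 4-fold and 73% of those at 8-fold. Moderate breed differences were thus mostly not detected even there, and recovery in the real libraries was not measured. The gene nearest to a difference among the 4 was ENSCAFG00000017871, with a log2 fold change of -8.47 in French Bulldogs and 0.43 in Boxers in the joint fit. The breed difference was -8.90 ± 2.06 (SE; edgeR unadjusted p = 0.000291, adjusted p = 1). Its Boxer controls lay between 1.53 and 3.80 on the log2 CPM scale, without a library near 10.

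Chromosome shifts were also set side by side for the breeds. Chromosome 13 differed between tumour and control by 0.495 in French Bulldogs and 0.512 in Boxers, and chromosome 35 by 0.59 and 0.607, in a joint scaling of the 19 libraries. On both chromosomes, and on no other of the 39, all 4 Boxer tumours lay above every Boxer control. On chromosome 24 all 4 lay below every Boxer control, with a difference of -0.111 in Boxers. The shallow Boxer control 50315 (0.406 M counts) is among these libraries. None of 39 chromosomes passed the test of a breed difference, with adjusted exact permutation p values of 0.944 or more over 26460 rearrangements of breed within tissue. Chromosome 20 differed by 0.307 in French Bulldogs and 0.0707 in Boxers, a difference of 0.236 (exact permutation p = 0.398). Chromosome 34 gave 0.00638 and 0.264, and chromosome 11 gave 0.026 and 0.28, so the values of the breeds were not alike on every chromosome.

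Dogs that share neither tumour nor control with the 11 allow the genes to be read again. In the Boxer FFPE libraries alone no gene passed in edgeR (0 of 13025, 0%), and 1860 reached an unadjusted p under 0.05. These fits include the shallow control 50315 (0.406 M counts). They also include control 61478, which had the highest Boxer control levels of ENSCAFG00000002057 (9.58 log2 CPM) and ENSCAFG00000014040 (4). Boxer fold changes without these controls were not computed. Of 452 genes higher in French Bulldogs that were tested there, 445 had a positive fold change (98.5%, against 54.8% of all genes), with a median of 1.13. Of 258 lower genes, 253 had a negative one (98.1%, against 45.2%), with a median of -1.46. The corresponding medians in French Bulldogs, where the genes were chosen, were 1.85 and -2.19. For ENSCAFG00000014040 the edgeR log2 fold change in Boxers was 2.46 ± 0.942 (SE, adjusted p = 0.294), and for ENSCAFG00000041869 it was -1.60 ± 1.05 (adjusted p = 0.49), with groups that overlapped for both. For ENSCAFG00000017871 it was 0.277 ± 0.969 (adjusted p = 0.914). For ENSCAFG00000002057 the Boxer log2 fold change was 2.33 ± 0.803 (SE; edgeR adjusted p = 0.26), with tumours at 9.74 to 10.6 and controls at 5.22 to 9.58 on the log2 CPM scale.

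Fresh-frozen tissue of dogs of other breeds gave 3 tumours and 4 controls, with 1 of the tumours from a dog of the Boxer set. The tumours were all labelled grade III, from a Border Terrier (8 years), a Pomerian (10, breed as labelled) and the Boxer (8.8). The controls were a Mongrel (6.3 years), a Berner sennenhund (10.2), a Bolonka Swetna (2.8) and a Hovawart with no age used. In these libraries edgeR called 1603 of 15244 genes higher (10.5%) and 1456 lower (9.55%). Of 455 French Bulldog higher genes tested there, 452 had a positive fold change (99.3%, against 51.8% of all genes) and 349 were called higher. Of 262 lower genes, 253 had a negative one (96.6%, against 48.2%) and 146 were called lower. None of the genes was called in the opposite direction. In these dogs the edgeR log2 fold change was 4.78 ± 0.857 (SE, adjusted p = 0.0116) for ENSCAFG00000014040, 5.41 ± 0.539 (adjusted p = 0.00361) for ENSCAFG00000002057 and -8.06 ± 1.03 (adjusted p = 0.00752) for ENSCAFG00000041869, the last with 0 counts in all 3 tumours. ENSCAFG00000017871 had -2.62 ± 0.835 (SE) and did not pass, with an edgeR adjusted p of 0.0555.

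Genes low in control brain are of interest in a search for tumour antigens, since an antigen target should be scarce in healthy tissue. Among tested genes, 300 had a mean under 1 log2 CPM in the controls, and 16 of these were higher in tumours (5.33%, against 3.33% of all genes). A gene this low in controls could enter the test mainly through the tumours, so the share is a description only. All 6 tumours lay above every control at 7 of the 16, 5 tumours at 8 and 4 tumours at 1. Of the 16, 2 lay on chromosome 13, 2 on chromosome 20, 2 on chromosome 24 and 2 on chromosome 3. Their log2 fold changes ran from 2.64 to 5.17. A further 2538 genes had 0 counts in all 5 controls, and 7 of them had a count in every tumour. These 7 were too low to be tested, with means of 0.336 to 1.5 CPM in tumours. The summed controls held 20.8 M counts, in which 3 counts correspond to 0.144 CPM. The tumour mean of the highest of the 7 was 10.4-fold above that pooled floor, which takes no account of spread between dogs. The 7 were picked for their absence in controls, so the ratio is a description only. In the other direction, 9 genes had a count in every control and 0 in every tumour. Controls other than healthy brain, such as other organs, were not analysed here.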

How the data were processed

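RNA was extracted with a column kit and made into forward-stranded total RNA libraries whose molecules carry a 12 nt identifier; per the labels' protocols, both ends were read. The deposited values are raw counts of fragments per gene. Per the file headers, the authors ran featureCounts 1.6.0 on Ensembl release 100 models of CanFam3.1, stranded (option 1), with minimum mapping quality 10 and exons grouped by gene. The submitters' processing notes also name fastp and STAR, without versions. No source used here says whether reads were collapsed by identifier, so the floor given covers counting error only. The exonic length in the deposited table, a number of bases, served to sort genes into classes. The table holds 30951 genes, 0 of which the RefSeq names at hand could pair with a symbol, so the symbol lists and cell type markers listed for the work were not used. The table has 0 sample columns outside the series.

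Genes were tested with edgeR 4.0.16 under R 4.3.3 (TMM scaling, filterByExpr, robust quasi-likelihood fits, Benjamini-Hochberg at 0.05) on the 11 French Bulldog FFPE libraries. The breed interaction used these and 8 Boxer libraries. Log2 CPM used a prior count of 2, and SE is the fold change over the root of F. DESeq2 1.42.0 and limma 3.58.1 voom were alternatives, beside other scaling, filters, thinning, age, grade, subsets of dogs and each library left out. Genes were named from those with adjusted p under 0.05, average log2 CPM of at least 2 and 80% of each group on its own side of the other group's median: the 2 highest and 2 lowest, since no symbols were paired. Library measures and chromosome shifts were tested by exact permutation. The fits were tested on simulated data first. The members and lists were chosen with earlier results of these data known. The windows, left-out positions, size classes of mitochondrial and histone-length genes, genes low in controls and the comparisons with other dogs were added after values were seen. Nothing in the labels says that dogs were related or handled in batches, and p-values measure the spread between these samples.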

Additional observations from a re-analysis of the deposited data

Results flagged for a closer look

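Of 36 groups of values, each over the 6 tumours or the 5 controls, 3 held a library farther from the rest than the limit of Dixon's test. Chance alone passes that limit in about 1 of 20 groups. The total of tumour dog 60749 was 9.71 M counts (M, mega-counts), and the next tumour held 5.70 M. The control of dog 60462 had 26124 genes with a count, and the next control had 19902. ENSCAFG00000002057 lay at 6.60 log2 CPM in tumour dog 44331, and the next tumour lay at 9.97.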

How the results depend on the processing

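No paired analysis was possible because tumours and controls come from different dogs. Against 722 called genes, the count was 706 to 902 under the other scaling, both filters, mitochondrial or short features left out, thinning to the lowest total and all 21 FFPE libraries in the fit. It was 2401 with DESeq2, 3461 with limma voom and 2741 without tumour 44331 and control 60462 (chosen after seeing the data). It was 306 without the 2 grade II tumours. It was 0 with age as a covariate (5 tumours, 3 controls; 2246 at unadjusted p under 0.05), in dogs with no frozen library (3 against 3; 1990) and in dogs with one (3 against 2; 1975), all in edgeR. Leaving out 1 library gave 122 (control 47198) to 1951 (tumour 44331). Other single removals that moved the count by over 1.5 times gave 402 for tumour 51234, 306 for 60177, 236 for 60636 and 326 for 60749, and 218 for control 43323, 242 for 45726 and 376 for 60460. The cause was not tested beyond the smaller number of libraries. The 4 named genes kept their direction in all of these fits that tested them. All 4 missed the threshold in the 3 fits with 0 calls, with edgeR adjusted p from 0.108 to 0.251. Without a filter, ENSCAFG00000014040 had an edgeR adjusted p of 0.0513 and ENSCAFG00000017871 one of 0.0514. The median of long mitochondrial features was 0.113 without tumour 44331 and control 60462, against -0.208; with each library left out it ran from -0.378 (control 43323) to 0.178 (control 60462). For single-exon genes over 300 bp the median without a filter was -1.27, against 0.16. Without a filter the chromosome 13 difference was 0.0416 against 0.501, and that of chromosome 35 was 0.12 against 0.523. Library measures and the breed interaction stayed at 0 calls under each alternative run for them. So did chromosome shifts, whose permutation test could hardly call a chromosome at these numbers of libraries, so this says nothing of stability.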
